A study of Mus musculus with 15 samples.

Results

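Malat1 and 8 other named noncoding RNAs (Neat1, Meg3, Miat, Snhg11, Kcnq1ot1, Rian, Mirg and Gas5) were followed in the mouse trigeminal ganglion (TG), the sensory ganglion whose neurons innervate the cornea, after corneal injury and topical lipid treatment. They are 9 of the 55573 genes in the count table and were found through their GENCODE gene identifiers. Malat1 was chosen because its counts in RvD6-isomer samples had been seen to be low against both other groups, so its values in those contrasts are given as a description with no test. The other 8 were chosen to stand beside it, with earlier results of the same samples known.

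All 15 samples came from 10-week-old male CD1 mice, an outbred strain, whose right cornea was injured by removing the epithelium and anterior stroma at its centre. The eye was then treated 3 times per day for 12 days with vehicle, with RvD6-standard (RvD6, the chemical standard of resolvin D6, a dihydroxy derivative of docosahexaenoic acid) or with RvD6-isomer (RvD6si, a stereoisomer isolated from tears and corneal culture medium), and the right TG was taken for RNA-seq. Each group held 5 samples, every group was injured, and no uninjured ganglion was analysed here. The lipid dose of this experiment is not given in the sources used here, so the lipids were compared as given and not at a dose known to match.

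Most of these RNAs stay in the nucleus. Malat1 (metastasis associated lung adenocarcinoma transcript) lies in nuclear speckles, where splicing factors gather, and Neat1 is the scaffold of the neighbouring bodies called paraspeckles. Both are made from single-exon genes next to each other. Their full-length transcripts end in a triple helix of U-rich and A-rich stretches, after RNase P has cut the transcript there. The helix protects these full-length forms in place of a poly(A) tail. Meg3, Rian and Mirg come from the maternally expressed strand of the imprinted Dlk1-Dio3 region, in which Rian carries snoRNAs and Mirg carries miRNAs. Kcnq1ot1 is the antisense RNA that silences genes of the imprinted Kcnq1 region, Miat is a nuclear RNA abundant in neurons, and Gas5 and Snhg11 are snoRNA host transcripts.

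In GRCm38 coordinates, Malat1 (ENSMUSG00000092341.3) lies at chr19:5795690-5802672 and Neat1 (ENSMUSG00000092274.3) at chr19:5824708-5845478, both on the minus strand and each annotated as 1 exon. The ends of the 2 transcripts are printed here because they carry the feature that both RNAs share, read from the GENCODE mouse transcript sequences. Capitals mark runs of T that are split by C or GC (the U-rich motifs) and the A-rich tract.
Malat1, chr19:5795982-5796072, minus strand: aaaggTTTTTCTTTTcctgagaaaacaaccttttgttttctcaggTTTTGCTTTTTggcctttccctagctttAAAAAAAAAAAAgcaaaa
Neat1, chr19:5824708-5824802, minus strand: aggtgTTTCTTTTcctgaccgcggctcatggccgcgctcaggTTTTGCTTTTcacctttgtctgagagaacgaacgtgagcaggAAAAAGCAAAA
Both stretches hold 2 U-rich motifs followed by an A-rich tract. The libraries were primed with oligo(dT), which binds runs of A, and the annotated Malat1 transcript of 6983 bases has its longest run of 12 A at position 6674, 298 bases before its annotated end. The annotated Neat1 transcript of 20771 bases ends with its A-rich tract, and its longest run, of 7 A, lies 8197 bases before that end. Runs of 10 or more A were counted once in Malat1, 6 times in the longest Meg3 transcript, 10 times in Kcnq1ot1, once in Rian and 0 times in Neat1, Miat, Snhg11, Mirg and Gas5. How far priming inside these RNAs set their counts was not tested.

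The other members lie on 5 chromosomes. Meg3 spans chr12:109541001-109571726, Rian chr12:109603808-109661716 and Mirg chr12:109729764-109749460, all on the plus strand of the imprinted region. Miat lies at chr5:112213228-112229395 (minus strand), Snhg11 at chr2:158375638-158386145 (plus strand), Kcnq1ot1 at chr7:143203458-143296549 (minus strand, inside Kcnq1 and antisense to it) and Gas5 at chr1:161034422-161038539 (plus strand). The annotation lists Malat1, Neat1, Meg3, Miat and Mirg as lincRNA, Kcnq1ot1 as antisense, Rian and Gas5 as processed transcript and Snhg11 as protein coding, although Snhg11 is known as a noncoding host gene.

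Reads that fell on bases of more than 1 gene were not counted and strand was not used, so part of each gene was silent in the table. That part was 7.72% of the exonic bases of Malat1, 1.85% of Neat1, 8.29% of Meg3, 30.4% of Miat, 1.56% of Snhg11, 1.20% of Kcnq1ot1, 3.35% of Rian, 5.03% of Mirg and 17.8% of Gas5. The 2 genes annotated over Malat1 and the 3 over Neat1 had 0 reads in all 15 samples. Over Miat, 17 reads fell on 1 of 5 overlapping genes, the antisense Gm26953. The 10 snoRNA genes inside Gas5 had 0 reads, where reads on bases shared with Gas5 were not counted, and Zbtb37, which overlaps Gas5, had 957. The 15 miRNA genes inside Mirg had 21 reads in all, and the 18 genes inside Rian had 8.

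The deposited counts summed to between 7421910 and 9903396 per sample in vehicle, between 5336073 and 9618944 in RvD6 and between 4125962 and 8762636 in RvD6si. Depth was thus lower in RvD6si (median 6862705) than in vehicle (median 9147139), and its part in the values was not tested. Normalized counts were the deposited counts divided by DESeq2 size factors. CPM are counts per 1000000 reads counted on the genes tested, scaled by edgeR's normalization factors (TMM). Neuron markers, which define this ganglion, summed to 16810 to 18960 CPM in vehicle, 9871 to 17530 in RvD6 and 15120 to 19680 in RvD6si. Markers of bone marrow cells, red cells and skeletal muscle, which a dissected ganglion should hold little of, were uneven between groups: marrow myeloid markers summed to 111.6 to 593.3 CPM in vehicle and 694.8 to 2259 in RvD6, and RvD6si lay between 55.71 and 132.0 in 4 samples with 1977 in replicate 15. Red cell markers summed to 2382 to 5066 CPM in vehicle and 5754 to 10620 in RvD6. In RvD6si they lay between 935.9 and 2613 in 4 samples, with 12020 in replicate 15. Skeletal muscle markers summed to 49.16 to 186.0 CPM in vehicle, 107.2 to 2541 in RvD6 and 37.43 to 72.12 in RvD6si. Pituitary markers were uneven between samples, at 9.967 to 3755 CPM in vehicle, 226.2 to 2320 in RvD6 and 20.1 to 670.8 in RvD6si. The part of the pituitary markers in the members' values was not tested. In bulk RNA, fewer cells of a type and less RNA per cell cannot be told apart.

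The word abundant held for some of the 9 RNAs and not for others. Levels were compared between genes per length, as CPM per kb of exon. In vehicle samples Malat1 stood first at 245.3 ± 55.66 CPM per kb (SD, n = 5), followed by Snhg11 at 25.77 ± 2.476 and Gas5 at 9.939 ± 2.017. Meg3 had 8.093 ± 2.721 CPM per kb, Neat1 5.975 ± 1.137 and Miat 1.793 ± 0.752. Rian had 0.7695 ± 0.3199 CPM per kb, Kcnq1ot1 0.4076 ± 0.1883 and Mirg 0.07303 ± 0.08464. The vehicle samples of Gas5 and Meg3, of Meg3 and Neat1, and of Rian and Kcnq1ot1 overlapped, so these neighbours did not separate beyond their spread, while the samples of all other neighbours in the order were apart. In RvD6 and RvD6si, Neat1 stood before Meg3, again with overlapping samples. Among the 16567 genes tested, Malat1 ranked 52nd by mean CPM and 247th by CPM per kb, whereas Miat ranked 8660th by mean CPM. By mean CPM Snhg11 ranked 847th, Neat1 1116th, Meg3 1398th, Kcnq1ot1 4940th, Gas5 5249th and Rian 6902nd. Without division by length, Neat1 and Meg3 thus stood before Gas5, so the order depended on the annotated length.

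**Figure D1:**
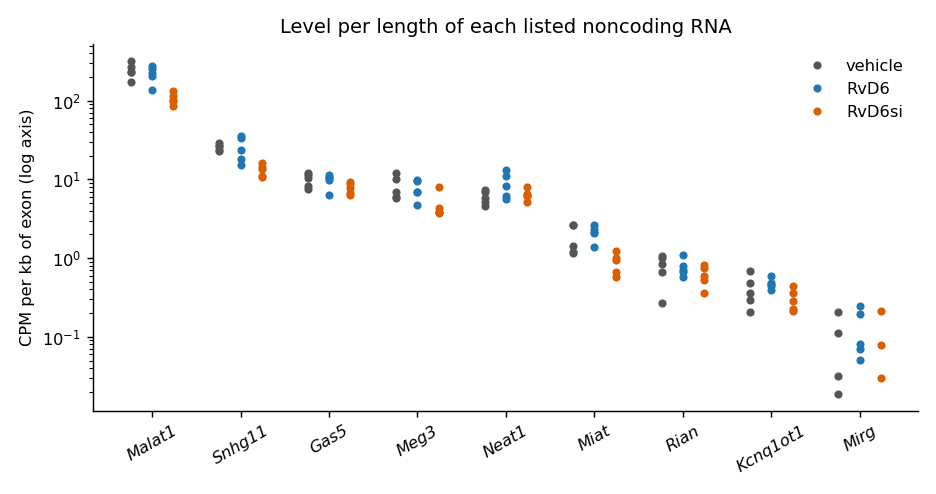
Level of each listed RNA in CPM per kb of exon (log axis), ordered by the vehicle mean, with 1 point per sample (5 per group). Malat1 lies above all others in each group, and samples of Mirg with 0 reads (1 vehicle and 2 RvD6si samples) are not drawn.

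Mirg, the miRNA host of the imprinted region, had 0 to 13 reads per sample and did not pass the filter on low counts, so it was not tested. The other 8 members passed. Together the 9 RNAs took 0.16% to 0.3025% of all counts in vehicle, 0.1349% to 0.2681% in RvD6 and 0.1013% to 0.1539% in RvD6si, and Malat1 made up most of this in each sample.

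Malat1 had 16120, 13480, 11730, 11480 and 8579 normalized counts in the vehicle samples. The RvD6 samples had 6782, 10450, 12640, 11300 and 14090, and the RvD6si samples 4969, 6701, 5102, 5706 and 4233. Every RvD6si sample lay below every sample of the other groups, with the highest, 6701 in replicate 12, just under the lowest RvD6 sample, 6782 in replicate 6. The means were 12280 ± 2776 in vehicle, 11050 ± 2759 in RvD6 and 5342 ± 923 in RvD6si (SD, n = 5), which put the vehicle mean 2.299-fold and the RvD6 mean 2.069-fold above that of RvD6si. In the edgeR fit the log2 fold change was -1.21 (standard error, SE, 0.19) for RvD6si against vehicle and -1.04 (0.19) for RvD6si against RvD6. Leaving out each of the 15 samples in turn gave -1.30 to -1.09 and -1.16 to -0.94, and without RvD6si replicate 15, the sample with high marrow and red cell markers, the values were -1.13 and -0.97. For RvD6 against vehicle, a contrast that did not choose Malat1, the log2 fold change was -0.17 (SE 0.19, adjusted p = 0.74 by edgeR's quasi-likelihood test), with a 95% interval of -0.53 to 0.20.

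As a share of all counts, Malat1 took 0.114% to 0.2258% in vehicle, 0.0902% to 0.1935% in RvD6 and 0.06311% to 0.09574% in RvD6si. Set against counts on protein-coding genes alone, the mean share was 0.2076% in vehicle, 0.1911% in RvD6 and 0.09034% in RvD6si, so the order of the groups was the same with either denominator.

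**Figure D2:**
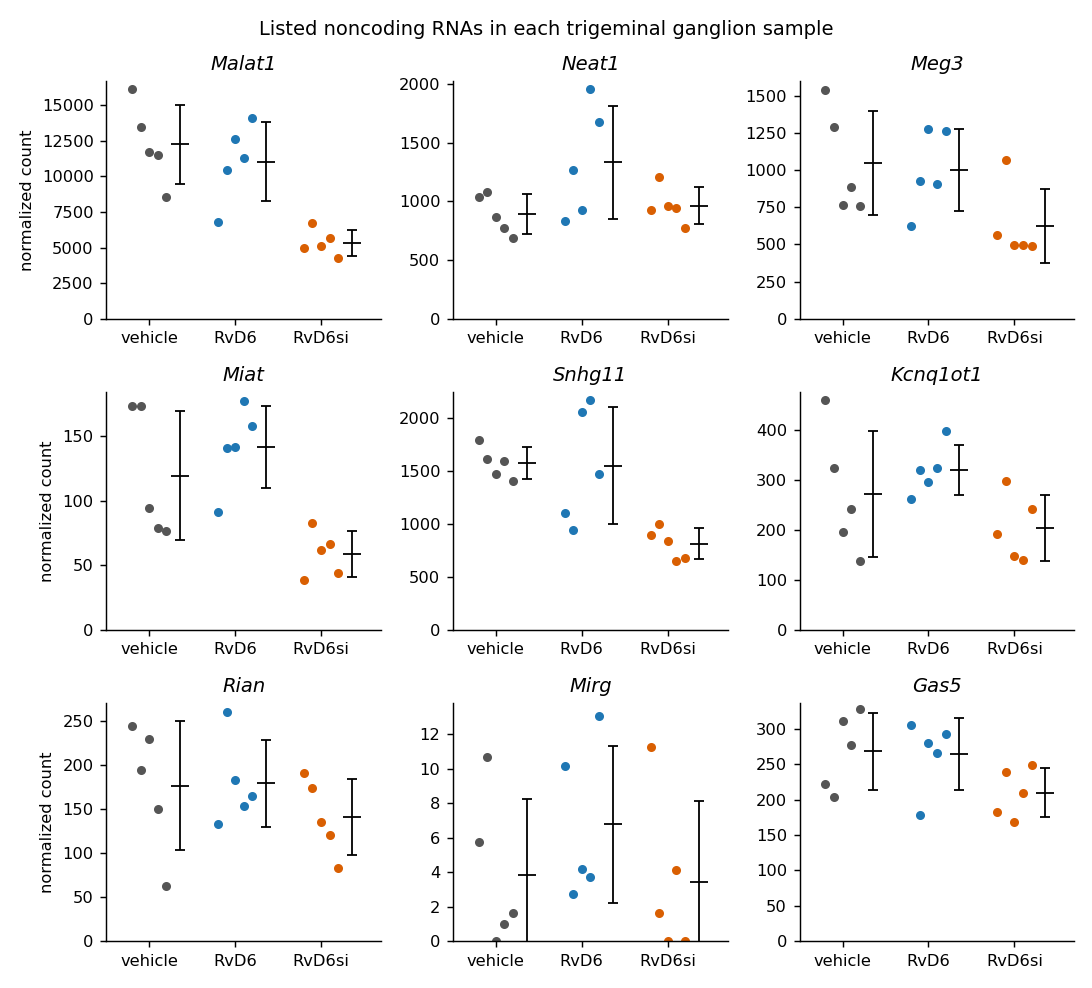
Normalized counts (y axis, from 0) of the 9 RNAs in the 5 vehicle, 5 RvD6 and 5 RvD6si samples; each point is 1 sample and the black mark is the mean with SD (for Mirg, SD bars that reach below 0 end at the axis). RvD6si points of Malat1 and Snhg11 lie below all vehicle points, while those of Neat1 lie among them.

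Among the 7 other tested RNAs, Snhg11 was the only one that passed the test in RvD6si against vehicle, and it fell. This is 1 of 7, where 0.145% of all genes tested (24 of 16567) were called lower. Snhg11, a neuronal snoRNA host transcript, had 1791, 1612, 1469, 1597 and 1404 normalized counts in vehicle and 896.7, 1002, 835.2, 652.8 and 681.1 in RvD6si. The groups did not overlap, which was so, in this direction, for 2.40% of all genes tested. The mean went from 1575 ± 149 to 814 ± 147 (SD, n = 5), a log2 fold change of -0.96 (SE 0.20, adjusted p = 0.0373). DESeq2 gave an adjusted p of 0.000719. The edgeR call was lost without any one of the vehicle samples or of RvD6si replicates 11, 13, 14 and 15, where the adjusted p was 0.0628 to 0.112 and the log2 fold change stayed between -0.99 and -0.89.

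Miat and Meg3, the 2 members whose samples followed Malat1 most closely, did not pass the edgeR test. Miat had 173.8, 173.5, 94.68, 78.72 and 76.49 normalized counts in vehicle and 38.4, 83.07, 62.07, 66.22 and 43.89 in RvD6si. Only replicate 12 of RvD6si reached the vehicle range. The log2 fold change of Miat was -1.02 (SE 0.30, adjusted p = 0.105 by edgeR), and DESeq2 put it past the threshold with an adjusted p of 0.0234. Meg3 had 1543, 1293, 767.1, 886.5 and 757.5 normalized counts in vehicle and 566.9, 1066, 493.8, 499.7 and 492.5 in RvD6si. Again 4 of 5 RvD6si samples lay below all vehicle samples and replicate 12 did not. The log2 fold change of Meg3 was -0.76 (SE 0.26, adjusted p = 0.154), and without replicate 12 of RvD6si it was -1.03 with an adjusted p of 0.0465.

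Neat1, the gene beside Malat1, did not follow it. Its normalized counts were 1038, 1082, 868.2, 773.4 and 687.6 in vehicle and 928.3, 1210, 963, 939.4 and 768.9 in RvD6si. The groups overlapped, and the log2 fold change was 0.11 (SE 0.21, adjusted p = 0.853 by edgeR), with a 95% interval of -0.31 to 0.52. Gas5, the growth arrest associated snoRNA host, had 202.9 to 328.2 normalized counts in vehicle and 168.9 to 248.7 in RvD6si, with a log2 fold change of -0.36 (SE 0.20, adjusted p = 0.384). Kcnq1ot1 had 137.3 to 460 normalized counts in vehicle and 140.7 to 297.9 in RvD6si (log2 fold change -0.42, SE 0.28, adjusted p = 0.484). Rian had 62.51 to 245.1 in vehicle and 82.9 to 190.9 in RvD6si (log2 fold change -0.33, SE 0.31, adjusted p = 0.657). For these 4 RNAs the samples of both groups overlapped.

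Over the 7 members other than Malat1, 6 had a negative log2 fold change in RvD6si against vehicle and the median was -0.42. Over all genes tested the median was 0.02 and 48.81% were negative. The 602 other tested genes annotated as lincRNA, antisense or processed transcript had a median of -0.14 with 357 negative, against 0.06 for 13723 protein-coding genes. By edgeR, 24 of all 16567 genes tested were called lower, 87 were called higher and 2648 had an unadjusted p under 0.05. Among the 602 genes 1 was called lower and 0 higher, while 44 had such a p, a smaller share than over all genes. The called gene was the lincRNA 9530059O14Rik (chr9:122572499-122679596), which went from 861.4 ± 160.2 to 385.9 ± 117.7 normalized counts (SD, n = 5), a log2 fold change of -1.16 (SE 0.25, adjusted p = 0.0364).

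**Figure D3:**
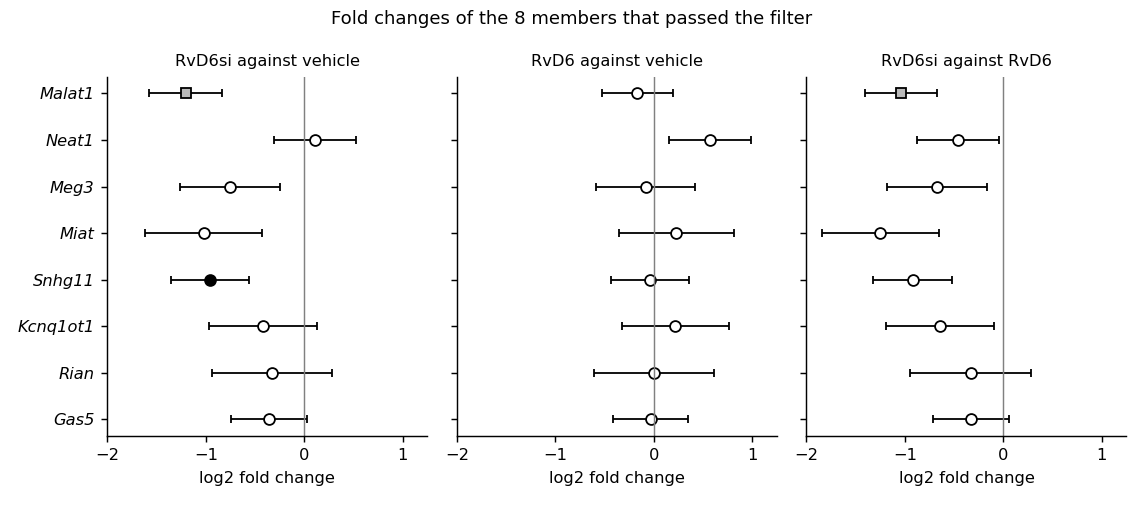
Log2 fold changes (x axis) of the 8 RNAs that passed the filter in the 3 contrasts, with bars of 1.96 SE. Grey squares mark the contrasts that chose Malat1 and carry no test, the filled circle is an adjusted p under 0.05 (Snhg11 in RvD6si against vehicle, -0.96), and open circles did not pass.

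In RvD6 against vehicle 0 of the 8 tested RNAs passed by edgeR or DESeq2, and 1, Neat1, had an unadjusted p under 0.05. edgeR called 0 of 16567 genes (0%) in that contrast, 2256 (13.6%) had an unadjusted p under 0.05, and DESeq2 called 369, of which 342 were among the 16567 (2.06%). The largest difference among the members was that of Neat1, whose normalized counts in RvD6 were 833.2, 1264, 928.9, 1961 and 1674, a mean of 1332 ± 482 against 889.9 ± 169 in vehicle (SD, n = 5). Of the RvD6 samples 3 lay above all vehicle samples and 1 lay below the vehicle mean. The log2 fold change was 0.57 (SE 0.21, unadjusted p = 0.0153, adjusted p = 0.264 by edgeR). With the neuron marker score as a covariate, added after the data were seen, it was 0.20 (adjusted p = 0.883), and 13 of 16 neuron markers had negative log2 fold changes in RvD6 against vehicle (0 passed). The summed marrow, red cell and muscle markers were also higher in RvD6, and their part in this value was not tested. The other members had log2 fold changes between -0.17 and 0.23, with adjusted p of 0.74 or more.

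The 2 lipids were set against each other directly, as 1 of 3 pairs of groups, with p-values adjusted over all genes. Without Malat1, all 7 tested members had negative log2 fold changes in RvD6si against RvD6, with a median of -0.64 against 0.00 over all genes. Of these 7, 0 passed edgeR's test, where 0.223% of all genes were called lower, and 5 had an unadjusted p under 0.05, where 4.64% of all genes had one with a negative value (8.82% in either direction). DESeq2 called 2 of the 7, Miat and Snhg11, and 0.978% of all genes. Miat had 91.45, 140.6, 141.5, 177.2 and 158 normalized counts in RvD6, all above the 38.4 to 83.07 of RvD6si. Its log2 fold change was -1.25 (95% interval -1.85 to -0.65, adjusted p = 0.126), and DESeq2 gave an adjusted p of 0.0127. Such a separation of groups was seen for 1.09% of all genes tested. Snhg11 had 1101, 943.6, 2058, 2167 and 1466 normalized counts in RvD6, and only the value of replicate 7 fell inside the RvD6si range. Its log2 fold change was -0.92 (95% interval -1.32 to -0.52, adjusted p = 0.0811), with an adjusted p of 0.00344 by DESeq2. Without RvD6 replicate 7 the edgeR value was -1.05 with an adjusted p of 0.0203. The intervals of Meg3 (-1.18 to -0.16), Kcnq1ot1 (-1.19 to -0.09) and Neat1 (-0.87 to -0.04) also lay below 0, with adjusted p of 0.436, 0.507 and 0.542. Those of Rian (-0.95 to 0.28) and Gas5 (-0.71 to 0.06) included 0. In this contrast 15 of 16 neuron markers had positive log2 fold changes (0 passed). All 9 tested skeletal muscle markers had negative log2 fold changes (7 passed). With the neuron marker score of each sample as a covariate, which was added after the data were seen, Neat1 went from -0.46 to -0.0073 (adjusted p = 0.998), while the other 6 stayed negative, between -1.26 for Miat and -0.18 for Gas5. All 7 tested red cell markers and all 10 marrow myeloid markers also had negative log2 fold changes in RvD6si against RvD6 (0 passed). The part of the muscle, red cell and marrow markers was not tested. Both contrasts of RvD6si share its 5 samples.

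Within a sample, the ratio of Malat1 to Neat1 counts does not depend on the size factor. It was 15.53, 12.46, 13.51, 14.85 and 12.48 in vehicle, 8.139, 8.271, 13.61, 5.763 and 8.419 in RvD6, and 5.353, 5.537, 5.298, 6.074 and 5.505 in RvD6si. The 5 RvD6si samples lay close together. Of the RvD6 samples, replicate 9 (5.763) lay inside the RvD6si range and replicate 8 (13.61) inside the vehicle range. The other RvD6 samples lay between the ranges of RvD6si and vehicle. This ratio contains the contrast that chose Malat1 and is a description. The ratio of Malat1 to Meg3 was 10.43 to 15.29 in vehicle, 9.894 to 12.44 in RvD6 and 6.289 to 11.42 in RvD6si, so these groups overlapped. Between the snoRNA hosts, the ratio of Snhg11 to Gas5 was 4.278 to 8.091 in vehicle, 3.601 to 8.168 in RvD6 and 2.739 to 4.946 in RvD6si. Within the imprinted region, that of Meg3 to Rian was 3.331 to 12.12, 3.574 to 7.671 and 2.97 to 6.119 in the same order.

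**Figure D4:**
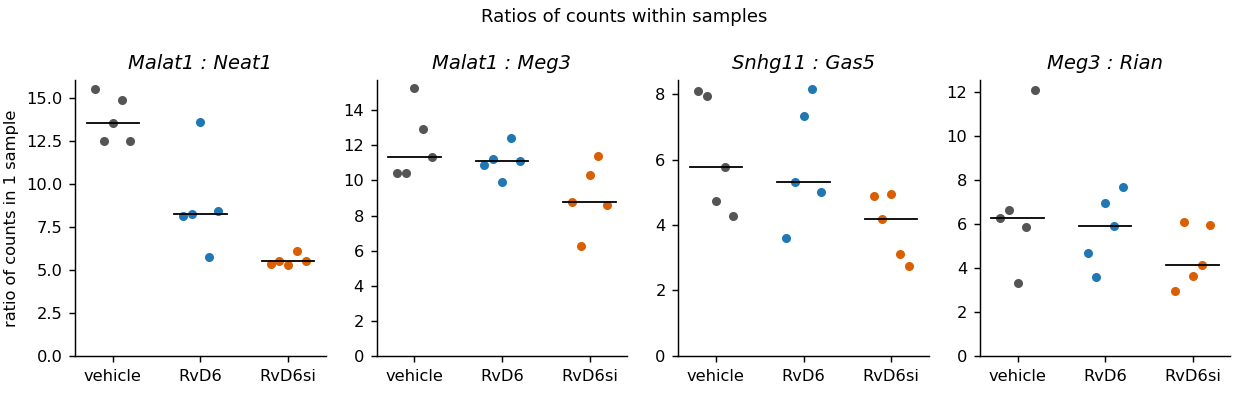
Ratio of the deposited counts of 2 RNAs within each sample (y axis, from 0), for 4 pairs, with 1 point per sample and a line at the group median. The Malat1 to Neat1 ratio was at least 12.46 in all vehicle samples and at most 6.074 in all RvD6si samples.

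The genes most like Malat1 over the 15 samples were ranked by Pearson's r of log2 CPM among all genes tested. Miat stood first (r = 0.89, Spearman's rho 0.86), followed by Meg3 (0.88), Chp2 (0.86), 9530059O14Rik (0.86) and Snhg11 (0.86), so that 3 of the 5 were listed members. Kcnq1ot1 ranked 163rd (r = 0.64), Rian 744th (0.51), Neat1 2035th (0.37) and Gas5 2729th (0.32). The samples share libraries and depth, and part of each r is the difference between groups. With group means removed, the 5 highest were Tmem88b (0.88), Cabin1 (0.87), C130075A20Rik (0.87), Krt87 (0.87) and Gm45200 (0.86), of which C130075A20Rik, Krt87 and Gm45200 had under 3 CPM on average. In that ranking Meg3 stood 7th (0.85), Miat 19th (0.81), Neat1 159th (0.70), Kcnq1ot1 364th (0.63), Rian 429th (0.62), Snhg11 883rd (0.54) and Gas5 13334th (-0.30). Within groups, then, Neat1 moved more nearly with Malat1 than it did across groups, and Snhg11 less. Of the highest-ranked genes, Chp2, a calcineurin-like protein, had 198.8 ± 31.77 normalized counts with vehicle, 150.1 ± 26.4 with RvD6 and 105.8 ± 7.422 with RvD6si (SD, n = 5). It passed the test in RvD6si against vehicle (log2 fold change -0.91, SE 0.19, adjusted p = 0.0346), but was picked for its likeness to Malat1, which was itself chosen on that contrast.

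**Figure D5:**
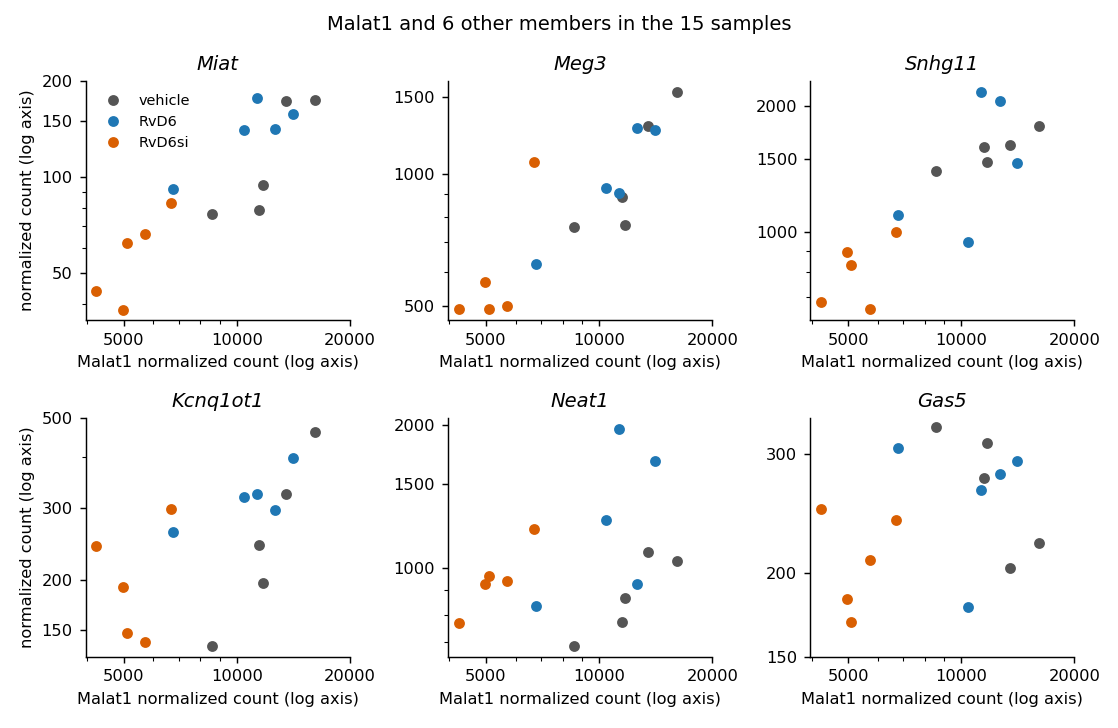
Normalized counts of 6 members (y axes, log) against those of Malat1 (x axes, log) in the 15 samples, coloured by group. Points of Miat, Meg3 and Snhg11 rise with Malat1 (r = 0.89, 0.88 and 0.86 over all samples), and those of Neat1 and Gas5 spread widely (r = 0.37 and 0.32).

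The promoters of Malat1, Miat, Meg3 and Snhg11 are printed because the last 3 had the highest r with Malat1 among the members over all samples. That r includes the difference between groups, and with group means removed Snhg11 ranked behind Neat1, Kcnq1ot1 and Rian. The printed promoters are 300 bases each, 250 before to 50 after the RefSeq start, from RefSeq on GRCm38.p6, in which 8 of the 9 members had an entry. Capitals mark matches on either strand, some of which overlap, to 4 short motifs: the CCAAT box, the GC box spelled GGGCGG, the TATA box spelled TATAAA, and the core of the cAMP response element (CRE), which is spelled TGACG.
Malat1, chr19:5802623-5802922, minus strand: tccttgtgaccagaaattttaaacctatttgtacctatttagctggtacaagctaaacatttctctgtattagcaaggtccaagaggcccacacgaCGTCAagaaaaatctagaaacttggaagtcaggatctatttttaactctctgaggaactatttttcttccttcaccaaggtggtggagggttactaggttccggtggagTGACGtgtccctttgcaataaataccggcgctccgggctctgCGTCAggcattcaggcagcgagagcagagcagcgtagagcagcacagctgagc
Miat, chr5:112228899-112229198, minus strand: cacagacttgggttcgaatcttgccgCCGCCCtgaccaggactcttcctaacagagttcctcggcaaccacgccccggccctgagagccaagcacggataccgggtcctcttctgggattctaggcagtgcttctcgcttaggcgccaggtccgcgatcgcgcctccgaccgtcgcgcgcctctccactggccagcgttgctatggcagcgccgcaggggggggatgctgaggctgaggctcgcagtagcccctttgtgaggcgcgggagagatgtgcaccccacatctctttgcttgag
Meg3, chr12:109540746-109541045, plus strand: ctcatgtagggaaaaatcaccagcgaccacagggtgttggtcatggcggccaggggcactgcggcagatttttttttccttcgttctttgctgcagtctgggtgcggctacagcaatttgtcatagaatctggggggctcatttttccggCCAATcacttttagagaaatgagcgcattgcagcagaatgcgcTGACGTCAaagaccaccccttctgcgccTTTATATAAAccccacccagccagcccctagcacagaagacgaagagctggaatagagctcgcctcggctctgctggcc
Snhg11, chr2:158375463-158375762, plus strand: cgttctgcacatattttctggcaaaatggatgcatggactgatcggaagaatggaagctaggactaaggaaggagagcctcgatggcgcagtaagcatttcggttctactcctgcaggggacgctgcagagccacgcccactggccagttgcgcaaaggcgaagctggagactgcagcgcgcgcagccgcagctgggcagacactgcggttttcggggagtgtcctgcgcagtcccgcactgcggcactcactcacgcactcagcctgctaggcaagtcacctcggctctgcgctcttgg
None of the searched motifs was in all 4 promoters. Malat1 held 3 matches to TGACG, which 20.8% of 32851 mouse promoters hold at least once, and none to the others. Meg3 held 2 matches to TGACG, 1 on each strand of a full CRE (TGACGTCA, in 1.79% of promoters), 1 CCAAT (37.4%) and 2 overlapping TATAAA matches (13.6%). Miat held 1 GC box (35.7%) and Snhg11 held none of these letters. Neither these nor the other members' promoters held an E-box (CACGTG, 7.15%). CpG pairs numbered 10 in the promoter of Malat1, 13 in Meg3, 25 in Miat and 21 in Snhg11, against a median of 7 over all promoters. Meg3 had a further RefSeq entry, not printed, at chr12:109545148-109545447, with 1 CpG pair and 0 matches to the searched motifs. A match describes the letters and not the binding of a factor.

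Genes that work with these RNAs were counted from lists. Of 22 nuclear speckle and splicing proteins, the bodies that hold Malat1, 0 passed the test in RvD6si against vehicle by edgeR in either direction, 5 had an unadjusted p under 0.05 and DESeq2 called 2 (Srsf6 and Srsf5). Over all genes tested, 16% (2648) had such a p and DESeq2 called 5.55%. The median log2 fold change of the list was -0.03. The speckle proteins with most counts, Srrm2 and Son, had log2 fold changes of -0.42 (adjusted p = 0.275) and -0.09 (0.876). Of 22 paraspeckle proteins, the partners of Neat1, 0 passed by edgeR, 4 had an unadjusted p under 0.05, DESeq2 called 2 (Hnrnpk and Hnrnpa1) and the median was 0.14. Among them Hnrnpk had 1159 ± 133 normalized counts in vehicle and 1712 ± 405 in RvD6si (adjusted p = 0.0979). Matr3 had a log2 fold change of 0.16 (adjusted p = 0.614). In RvD6 against vehicle and in RvD6si against RvD6, 0 genes of either list passed, and 0 and 3 speckle genes and 2 and 2 paraspeckle genes had an unadjusted p under 0.05. DESeq2 called 1 of them, the paraspeckle gene Cpsf6 in RvD6 against vehicle.

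A list of RNA cutting, binding and decay factors held RNase P subunits, Mettl16, Drosha and exosome factors among others. Of its 19 tested genes 1 passed in RvD6si against vehicle, where 0.670% of all genes (111 of 16567) were called in either direction. It was Pop5, a subunit of the RNase P and RNase MRP complexes. Pop5 had 825.5, 589.9, 805.6, 779.3 and 797.8 normalized counts in vehicle samples, against 666.7, 502, 553.4, 513.1 and 557.7 with RvD6 and 364.8, 483.2, 515.7, 480.1 and 468.1 with RvD6si. It fell in RvD6si against vehicle, with no overlap of samples, as for 2.40% of all genes (log2 fold change -0.72, SE 0.14, adjusted p = 0.0312 by edgeR). In RvD6 against vehicle its log2 fold change was -0.46 (adjusted p = 0.191). The other 18 did not pass. Rpp14, a further RNase P subunit and the next of the list by counts, had a log2 fold change of -0.20 (adjusted p = 0.70), and Mettl16, which binds the Malat1 triple helix, had 337.6 ± 70.31 normalized counts in vehicle and 363.1 ± 30.29 in RvD6si (adjusted p = 0.808).

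Of 12 tested protein-coding neighbours of Malat1 and Neat1, 0 passed in any contrast by edgeR or DESeq2. Only 1 had an unadjusted p under 0.05 in edgeR, in RvD6si against vehicle, where its log2 fold change was 0.50. In that contrast 5 of the 12 had negative and 7 positive log2 fold changes, with a median of 0.37. Cdc42ep2, named for its counts, had a log2 fold change of -0.34 (adjusted p = 0.403) in RvD6si against vehicle. In the imprinted regions, 0 of 8 tested genes of the Dlk1-Dio3 region and its edges and 0 of 10 of the Kcnq1 region passed edgeR's test in any contrast, with 1 and 2 at an unadjusted p under 0.05 in RvD6si against vehicle. DESeq2 called 1 of these 18, Begain of the Dlk1-Dio3 region in RvD6si against RvD6. Dync1h1 and Wars had log2 fold changes of 0.11 (adjusted p = 0.811) and 0.01 (0.984) for RvD6si against vehicle, and Cd81 and Nap1l4 -0.27 (0.367) and -0.19 (0.645).

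Of 13 other snoRNA host genes, 11 had negative values in RvD6si against vehicle with a median log2 fold change of -0.27, and 0 passed by edgeR or DESeq2 or had an unadjusted p under 0.05. Snhg14, with most counts among them, had 99.93 ± 26.06 normalized counts with vehicle, 174.5 ± 69.41 with RvD6 and 155.1 ± 54.56 with RvD6si (adjusted p = 0.278 and 0.324 against vehicle). Of 20 other named long noncoding RNAs, 0 passed in any contrast by edgeR or DESeq2, 1 had an unadjusted p under 0.05 in RvD6si against vehicle and the median there was 0.18, opposite in sign to that of the listed members. The 2 with most counts were Gm26917 and 2900097C17Rik (Norad, an RNA that binds Pumilio proteins), with log2 fold changes of 0.17 (adjusted p = 0.81) and 0.53 (0.20). Gm26917 has only a gene-model name, and where its reads came from was not tested.

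Because Meg3, Miat and Snhg11 are neuronal RNAs, the neuron markers are given beside them. Of 16 neuron markers, 8 had negative and 8 positive log2 fold changes in RvD6si against vehicle, with a median of -0.01. By edgeR 1 of the 16 passed, against 0.670% of all genes. It was Elavl4, an RNA-binding protein of neurons, which rose from 564.5 ± 89.76 to 1240 ± 364 normalized counts (SD, n = 5, log2 fold change 1.13, adjusted p = 0.0346). DESeq2 also called Stmn2, a tubulin-binding protein of neurons, in the opposite direction (log2 fold change -0.38, adjusted p = 0.0345 by DESeq2 and 0.119 by edgeR). In RvD6 against vehicle the median of the 16 was -0.30. With the neuron marker score as a covariate, RvD6si against vehicle gave a log2 value of -1.20 for Malat1 and -0.93 for Snhg11 (adjusted p = 0.0331). Satellite glia markers summed to 8560 to 10330 CPM in vehicle, 6369 to 8336 in RvD6 and 5985 to 8494 in RvD6si. Of the 8 markers, 5 had negative log2 fold changes in each lipid group against vehicle, 0 passed by edgeR, and most of the sum came from Apoe, a lipid carrier, whose mean was 48160 normalized counts with vehicle, 37390 with RvD6 and 36580 with RvD6si. DESeq2 called Apoe in RvD6si against vehicle (adjusted p = 0.0282, and 0.104 by edgeR). Their part in the members' values was not tested.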

How the data were processed

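RNA-seq of 15 mouse TG samples (5 vehicle, 5 RvD6, 5 RvD6si) was analysed. The authors deposited 1 table of raw counts per gene. Per the labels and methods, total RNA was primed with oligo(dT), libraries were made with template switching and Nextera XT, reads were aligned with Rsubread to GRCm38 (R 3.6.1, Subread 1.6.5) and counted without strand by featureCounts over GENCODE M22. Reads on several genes or places were not counted.

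The members and gene lists were chosen with earlier results of these data known. Symbols came from a list of gene names (99.68% of identifiers named). Positions and exonic lengths came with the deposited counts, and gene classes and transcript sequences from GENCODE M21. The main test was edgeR 4.0.16 (R 4.3.3) with TMM factors, filterByExpr (minimum count 10, total 15), a quasi-likelihood fit of all 15 samples in 3 groups, and Benjamini-Hochberg adjustment over 16567 genes at 0.05. The SE was the log2 fold change over the root of F, and intervals spanned 1.96 SE. DESeq2 1.42.0 gave size factors and an alternative test. Fits were tested on simulated data. The labels do not say which animals the samples came from, so p-values measure the spread between samples. Other settings were RLE factors, 2-group fits, other filters, length and GC trends removed (lowess span 0.3), and each sample left out. Totals of 4125962 to 9903396 counts per sample leave low genes such as Mirg to counting error. Named were the members, genes overlapping them, the 5 genes most like Malat1 in each ranking, genes of each list that passed edgeR's test, and otherwise the 2 with most counts. Rpp14, Mettl16, Apoe and genes that only DESeq2 called were named after their values were seen. One gene that this rule names is not reported here.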

Additional observations from a re-analysis of the deposited data

Results flagged for a closer look

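Meg3 in RvD6si replicate 12 stood apart from its group, with 1066 normalized counts against 492.5 to 566.9 in the other 4 samples. Its gap of 0.87 of the group's range exceeded Dixon's critical value of 0.71 for 5 samples. It was the only one of 27 groups of member values to do so, and chance alone flags about 1 in 20 groups. The same sample had the highest RvD6si values of Malat1, Miat, Snhg11, Neat1 and Kcnq1ot1.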

How the results depend on the processing

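Leaving out samples changed calls more than fold changes. Of 600 alternative values of the tested members' log2 fold changes, 563 kept their direction and their side of the threshold, or for Malat1 in its 2 described contrasts moved by under 1 SD, 9 lost a call, 9 gained one and 19 changed sign. All sign changes were in RvD6 against vehicle, where no member passed. Meg3 was 0.11 with the neuron score. Rian was -0.0049 in the fit of 2 groups, -0.011 with no filter, -0.21 with the length trend removed and -0.23 with the GC trend removed. Gas5 was 0.0034 with the filter on every sample. With each sample left out, Meg3 ranged from -0.19 to 0.0937, Snhg11 from -0.20 to 0.10, Rian from -0.21 to 0.15 and Gas5 from -0.12 to 0.0851.

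The number of members called in RvD6si against vehicle, 1 of 7 besides Malat1, was 2 with DESeq2 in both forms and 0 to 2 with each sample left out. In RvD6si against RvD6 it was 0, but 2 with DESeq2 in both forms, 1 with at least 10 reads in every sample and 0 to 1 with each sample left out. In RvD6 against vehicle it was 0 throughout.

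Genes called in RvD6si against vehicle numbered 111 in the main fit, 920 with DESeq2, 979 with DESeq2 on 2 groups, 315 with at least 10 reads in every sample, 63 with the length trend removed and 327 with the neuron score, and 0 to 229 with each sample left out (0 without RvD6si replicate 11). In RvD6 against vehicle they numbered 0, but 369 with DESeq2, 664 with DESeq2 and 38 with edgeR on 2 groups, 56 with no filter, 24 with at least 10 reads in every sample and 0 to 51 with each sample left out. In RvD6si against RvD6 they numbered 39, but 185 with DESeq2, 182 with DESeq2 and 17 with edgeR on 2 groups, 59 with no filter, 23 with at least 10 reads in every sample, 0 with the neuron score and 2 to 156 with each sample left out. The cause of the changes was not tested. With the neuron score, Neat1 moved from 0.57 to 0.20 in RvD6 against vehicle and from -0.46 to -0.0073 in RvD6si against RvD6. The neuron score and the removal of the 10 most counted genes were chosen after seeing the data. No paired analysis was possible because the groups share no replicate numbers.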
